A study of Mus musculus and Homo sapiens with 12 samples.

Results

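Hyaluronan is a long unbranched sugar polymer of the extracellular matrix. The synthases HAS1, HAS2 and HAS3 sit in the plasma membrane, build the chain from UDP-glucuronic acid and UDP-N-acetylglucosamine, and push it out of the cell as it grows. CD44 is its main receptor on the cell surface. HMMR, also called RHAMM, binds hyaluronan and is also a protein of the mitotic spindle. HYAL2 is a hyaluronidase anchored to the cell surface that cuts long chains into shorter fragments. Tumour cells are well known for using this system in adhesion, migration and matrix remodelling. These 6 genes were read in each of 2 expression tables by symbol (mouse) or by the matching Ensembl identifier (human), which gave 12 rows of the 114564 in both tables together.

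The groups were PFKFB4-knockout EMT6, wild-type EMT6, PFKFB4-knockout MDA-MB-231 and wild-type MDA-MB-231, with 3 libraries each and 12 in all. EMT6 cells come from a mammary carcinoma of the mouse, and MDA-MB-231 cells from a human breast cancer. PFKFB4 is a bifunctional enzyme that sets the level of a regulatory sugar phosphate of glycolysis. Poly(A) RNA was sequenced, and the authors deposited TPM, a transcript abundance corrected for length and scaled to 1000000 per library. Both lines were cultured with serum in DMEM rich in glucose. The sample titles call the 3 libraries of each group biological replicates. The labels do not name the edited part of the gene, the number of clones or whether these replicates came from separate cultures. A p-value here reflects the spread among the libraries sequenced, and how much of that spread is technical cannot be told. The knockout columns carry codes that no label explains and were taken as knockout by elimination.

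The 12 libraries held between 11871 and 13593 genes at 1 TPM or more, and TPM does not show how many reads a value rests on. The targeted transcript was still present in EMT6: Pfkfb4 stood at 6.96, 6.87 and 8.24 TPM in the knockout libraries, against 10.2, 10.5 and 10.4 TPM in the wild-type libraries. By the limma fit described below, Pfkfb4 was called lower (log2 fold change -0.45, adjusted p = 0.00487), beside a median of -0.21 over all tested genes. That call was lost with libraries scaled by their median ratio (-0.23) and with the trend on exon length removed (-0.18). The human PFKFB4 row was not analysed here, since no names for human identifiers outside the 6 genes were used. Of 7 markers listed for the EMT6 carcinoma identity, the epithelial keratin Krt8 averaged 534.8 TPM in the knockout and 481.9 TPM in wild type, and Vim, a mesenchymal filament protein, 3291.5 TPM in the knockout and 2710.5 TPM in wild type. Both were called higher by limma (log2 fold change 0.15, adjusted p = 0.0302 for Krt8, and 0.28, adjusted p = 0.00253 for Vim). The keratins Krt18 (15.5 TPM in the knockout and 36.3 TPM in wild type, log2 fold change -1.17, adjusted p = 0.000368) and Krt14 (3.94 TPM in the knockout and 36.5 TPM in wild type, -2.92, adjusted p = 1.06e-05) were lower. The epithelial surface proteins Epcam (0.21 TPM in the knockout and 0.231 TPM in wild type) and Cdh1 (0.00228 TPM in the knockout and 0.00715 TPM in wild type) and the basal keratin Krt5 (0.0247 TPM in the knockout and 0.0158 TPM in wild type) were close to 0. Of 10 fibroblast markers, 6 averaged under 1 TPM in the knockout and 5 in wild type, and Lum was at 0 in all 6 libraries.

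The values below rest on a limma fit of log2(TPM + 1) over all expressed genes of a line, with calls at a Benjamini-Hochberg adjusted p under 0.05. Genes counted as expressed, and so tested, at 0.5 TPM or more in at least 3 of the 6 libraries of the line. Of the 6 genes, 4 passed in each line: HAS2, CD44, HMMR and HYAL2. HAS1 and HAS3 did not pass in either line. In EMT6, 4 were called lower in the knockout and 0 higher by limma, and 0 were higher at an unadjusted p under 0.05. Since 42.3% of all 13499 tested EMT6 genes were called lower and 14.5% higher, a call in EMT6 says little by itself (56.7% were called in either direction). Median-ratio scaling turned the 5705 lower and 1954 higher calls into 3426 lower and 3584 higher. In MDA-MB-231, 2 were called lower and 0 higher by limma, again with 0 higher at an unadjusted p under 0.05, against 12.1% of 15299 tested genes called lower, 7.97% higher and 20.0% in either direction. A fall of at least 1 log2 unit was called for 0 of the 6 genes in EMT6 (4.6% of tested genes) and for HAS2 and CD44 in MDA-MB-231 (2.79% of tested genes). Over all MDA-MB-231 genes, the 1845 lower and 1220 higher calls became 1008 and 543 without knockout replicate 2, 1243 and 578 without knockout replicate 3, 975 and 584 without wild-type replicate 1, and 1209 and 759 without wild-type replicate 3. HAS2 and CD44 were called in each of these.

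**Figure D1:**
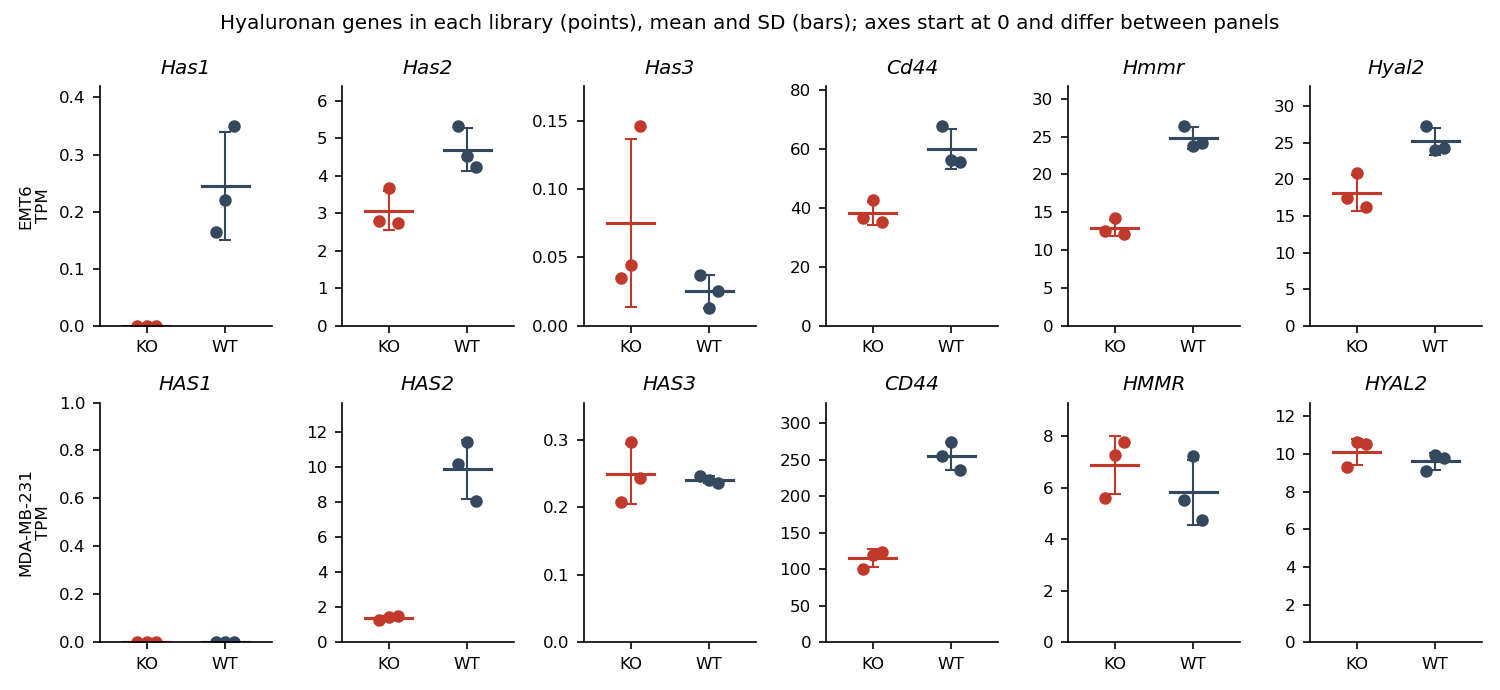
TPM of the 6 genes in each library of EMT6 (top) and MDA-MB-231 (bottom), knockout (KO, red) left of wild type (WT, dark). Points are libraries, horizontal lines group means and bars SD (n = 3 each). HAS2 and CD44 were lower in every knockout library of both lines, while HMMR and HYAL2 separated the groups in EMT6 and overlapped in MDA-MB-231.

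HAS2, the synthase with the most transcript in every library of both lines, showed the largest log2 fold change of the 4 tested genes, in MDA-MB-231. It stood at 1.25, 1.44 and 1.49 TPM in the MDA-MB-231 knockout libraries, against 10.2, 11.4 and 8.06 TPM in the wild-type libraries. Every knockout library was far below every wild-type library, and the knockout mean (1.39 ± 0.127 TPM) was 0.141 of the wild-type mean (9.87 ± 1.68 TPM; SD, n = 3 each). Its log2 fold change was -2.17 ± 0.14 (SE; adjusted p = 0.000354). Ordered from the most negative value, it was number 82 of the 15299 tested genes. In bulk RNA, fewer cells expressing a gene and less RNA per cell cannot be told apart.

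In EMT6, Has2 (ENSMUSG00000022367, chromosome 15, 56665627 to 56694539, minus strand, GRCm38) stood at 2.80, 3.67 and 2.75 TPM in the knockout libraries, against 5.33, 4.54 and 4.23 TPM in the wild-type libraries. The groups did not overlap, and the knockout mean was 0.654 of the wild-type mean. Its log2 fold change was -0.49 ± 0.12 (SE; adjusted p = 0.0165). The median over all tested EMT6 genes was -0.21, so Has2 lay 0.28 below it, and 26.1% of tested genes had a value as low or lower. The call was lost without knockout replicate 1 (adjusted p = 0.0561) or knockout replicate 3 (adjusted p = 0.0537), when libraries were scaled by their median ratio to the geometric mean (-0.30, adjusted p = 0.0691), and when the trend on exon length was removed (-0.26, adjusted p = 0.0936).

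An antisense gene, Has2os, overlaps the mouse synthase gene on the opposite strand and shares 182 nt of exon with the 4237 nt of Has2. It stood at 0.903, 1.38 and 1.10 TPM in the knockout libraries, against 1.12, 1.08 and 1.19 TPM in the wild-type libraries. The groups overlapped (log2 fold change -0.0075 ± 0.0966, SE; adjusted p = 0.954). The strand setting of the authors' counting is not given in the sources used here, so reads from the shared stretch cannot be told apart.

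HAS1 and HAS3, the other synthases, were at or near 0. In EMT6, Has1 was listed at 0 in all 3 knockout libraries, against 0.164, 0.221 and 0.35 TPM in the wild-type libraries. With no filter on low values Has1 was called lower (log2 fold change -0.31, adjusted p = 0.0126). Has3 stood at 0.0347, 0.0448 and 0.146 TPM in the EMT6 knockout libraries, against 0.0374, 0.0134 and 0.0254 TPM in wild type, and the groups overlapped. In MDA-MB-231, HAS1 was listed at 0 in all 6 libraries. HAS3 stood at 0.208, 0.296 and 0.243 TPM in the MDA-MB-231 knockout libraries, against 0.247, 0.24 and 0.236 TPM in wild type. It overlapped between groups and, unlike HAS2, had almost the same mean in both (0.249 and 0.241 TPM).

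Because TPM is corrected for length, the 3 synthases can be set against each other within a library. In MDA-MB-231, HAS2 held 85.8, 83.0 and 86.0% of synthase TPM in the knockout libraries, against 97.6, 97.9 and 97.2% in the wild-type libraries, and HAS3 held the remainder. The summed synthase level was 1.64 ± 0.16 TPM in the knockout and 10.1 ± 1.69 TPM in wild type (SD, n = 3 each). Both differences separated all libraries, at p = 0.1 in an exact two-sided permutation test, the smallest that 3 against 3 allows (0.133 adjusted over 20 such comparisons). In EMT6, HAS2 held 97.5 ± 2.2% in the knockout and 94.4 ± 2.33% in wild type (SD, n = 3 each), and the groups overlapped (exact permutation p = 0.3, adjusted p = 0.353). There HAS1 held 0% in each knockout library, against 2.97, 4.62 and 7.61% in wild type. HAS3 held 1.22, 1.21 and 5.03% in the knockout libraries, against 0.677, 0.281 and 0.551% in wild type. These 2 shares separated all libraries (exact permutation p = 0.1, adjusted p = 0.133 each), but rest on TPM near 0. The summed level in EMT6 was 3.15 ± 0.493 TPM in the knockout and 4.97 ± 0.494 TPM in wild type (exact permutation p = 0.1, adjusted p = 0.133).

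CD44, the cell-surface receptor, was the most abundant of the 6 transcripts in every library and fell in both lines. In MDA-MB-231 it stood at 100.8, 120.0 and 123.8 TPM in the knockout libraries, against 255.5, 273.3 and 235.7 TPM in the wild-type libraries. The groups were widely separated, and the knockout mean (114.9 ± 12.3 TPM) was 0.451 of the wild-type mean (254.9 ± 18.8 TPM; SD, n = 3 each). Its log2 fold change was -1.15 ± 0.10 (SE; adjusted p = 0.000993), a value that 2.56% of tested genes reached or passed on the low side.

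In EMT6, Cd44 (ENSMUSG00000005087, chromosome 2, 102811141 to 102901665, minus strand) stood at 36.6, 42.6 and 35.4 TPM in the knockout libraries, against 67.9, 56.4 and 55.7 TPM in the wild-type libraries. The groups did not overlap, and the knockout mean was 0.637 of the wild-type mean. Its log2 fold change was -0.64 ± 0.11 (SE; adjusted p = 0.00379), 0.43 below the median of all tested genes. The call was kept in all 13 alternatives, with values of -0.72 to -0.30 and adjusted p of 0.00362 to 0.024. The weakest value came with the exon length trend removed. CD44 is made in many splice forms with variable exons, and a gene-level TPM does not separate them.

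HMMR, the receptor that doubles as a spindle protein, fell in EMT6 and was not called in MDA-MB-231. In EMT6, Hmmr (ENSMUSG00000020330, chromosome 11, 40701395 to 40733422, minus strand) stood at 12.5, 14.2 and 12.2 TPM in the knockout libraries, against 26.4, 23.8 and 24.2 TPM in the wild-type libraries. The knockout mean was 0.522 of the wild-type mean, with tight groups (SD 1.08 and 1.41 TPM). Its log2 fold change was -0.89 ± 0.08 (SE; adjusted p = 0.000479), the strongest of the 4 genes tested in EMT6 and 0.68 below the median of all tested genes. It was called in all 13 alternatives, between -0.95 and -0.60. In MDA-MB-231, HMMR stood at 5.61, 7.27 and 7.76 TPM in the knockout libraries, against 5.52, 7.22 and 4.75 TPM in the wild-type libraries. The groups overlapped (log2 fold change 0.21 ± 0.18, SE; adjusted p = 0.44), and no alternative called it (adjusted p between 0.208 and 0.761).

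The promoters of the mouse receptors are shown because both receptors fell in EMT6 and HMMR is also a mitotic protein. RefSeq windows on GRCm38.p6, reaching 250 bases before to 50 after a start site, were found for 4 of the 6 genes (Cd44, Hmmr, Hyal2 and Has1). The 250 bases before the start are printed for the receptors, Hmmr at chr11:40733438-40733687 and Cd44 at chr2:102901666-102901915, both on the minus strand and read 5′ to 3′. Capitals mark CCAAT or its reverse complement ATTGG, the letters bound by the factor NF-Y in many cell-cycle promoters.
Hmmr: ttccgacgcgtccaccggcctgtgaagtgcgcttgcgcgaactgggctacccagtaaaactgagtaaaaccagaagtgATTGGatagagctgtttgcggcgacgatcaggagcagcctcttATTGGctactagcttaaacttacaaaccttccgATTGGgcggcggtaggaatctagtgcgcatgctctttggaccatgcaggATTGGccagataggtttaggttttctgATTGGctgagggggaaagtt
Cd44: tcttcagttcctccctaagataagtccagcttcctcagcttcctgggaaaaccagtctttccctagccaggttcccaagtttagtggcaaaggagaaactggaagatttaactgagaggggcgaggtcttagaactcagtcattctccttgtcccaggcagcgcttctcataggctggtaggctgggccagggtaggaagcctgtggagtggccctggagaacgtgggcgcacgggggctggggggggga

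The Hmmr window held 5 matches to CCAAT on either strand, the Has1 window 1, and the Cd44 and Hyal2 windows 0 each. The Hyal2 window belongs to a start site inside the gene. Its bases before the start run from 107568913 to 107569162, while the gene begins at 107567945. At least 1 match was in 37.4% of all 32851 promoter windows of this length, and 4 or more were in 1.06%. The letters TTTGAA, a core of the cell-cycle homology region found in promoters of mitotic genes, were in 17.9% of all windows. They occurred once in Hmmr (position 9 from the start site) and once in Has1 (position -45). Cd44 and Hyal2 held 0 copies. Of 21 spindle and mitosis genes with a window, 19 held CCAAT and 16 held TTTGAA in any of their windows. This count is by gene, so it cannot be set directly against the shares of single windows. Searches on both strands for GGGCGG (the GC box, in 35.7% of windows), ACGTG (the core of the hypoxia element, in 19.6%) and CACGTG (an E box that contains ACGTG, in 7.15%) found 1 GC box each in Cd44, Hmmr and Hyal2, and ACGTG in Cd44 only among these 3. The Has1 window held 0 matches to any of these. All matches given here describe letters and not binding.

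HYAL2, the surface hyaluronidase, was lower in the EMT6 knockout and not called in MDA-MB-231. In EMT6, Hyal2 (ENSMUSG00000010047, chromosome 9, 107567945 to 107572779, plus strand) stood at 17.5, 20.9 and 16.2 TPM in the knockout libraries, against 27.3, 24.0 and 24.3 TPM in the wild-type libraries. The groups did not overlap, and the knockout mean was 0.723 of the wild-type mean (log2 fold change -0.45 ± 0.11, SE; adjusted p = 0.0126). Median-ratio scaling ended the call (-0.22, adjusted p = 0.091). In MDA-MB-231, HYAL2 stood at 9.32, 10.6 and 10.5 TPM in the knockout libraries, against 9.07, 9.94 and 9.80 TPM in the wild-type libraries, which overlapped (log2 fold change 0.07 ± 0.10, SE; adjusted p = 0.656).

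The EMT6 knockout libraries all lay below the wild-type libraries for 4 of the 4 tested genes, against 48.3% of all tested genes, and all above for 0, against 17.9%. In MDA-MB-231 they lay all below for 2 of 4, against 22.9%, and all above for 0, against 17.2%. The effect of the knockout was not tested for a difference between the lines, because no other human gene was paired with a mouse gene and a p over all genes could not be had. Side by side, the log2 fold changes in EMT6 and in MDA-MB-231 were -0.49 ± 0.12 and -2.17 ± 0.14 for HAS2, -0.64 ± 0.11 and -1.15 ± 0.10 for CD44, -0.89 ± 0.08 and 0.21 ± 0.18 for HMMR, and -0.45 ± 0.11 and 0.07 ± 0.10 for HYAL2 (SE).

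**Figure D2:**
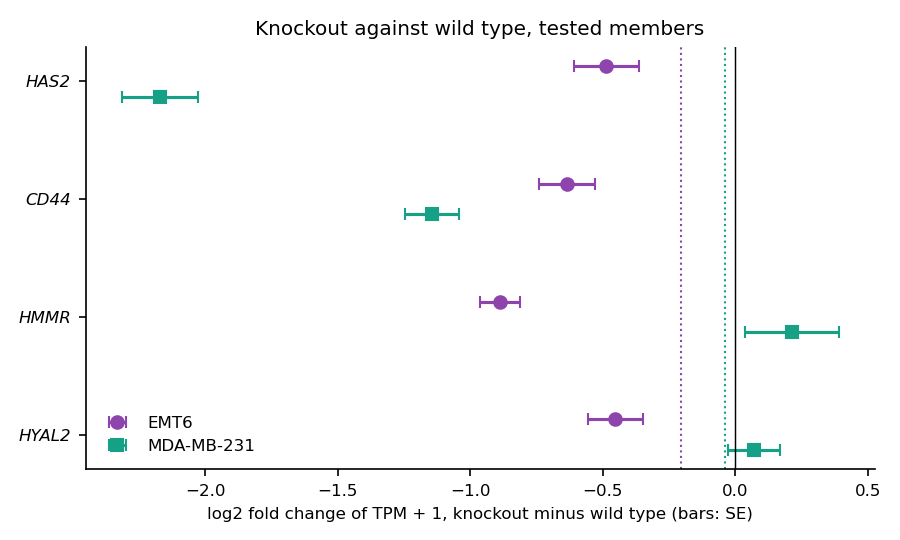
Log2 fold change of TPM + 1, knockout minus wild type, for the 4 tested genes in EMT6 (circles) and MDA-MB-231 (squares), with SE bars. Dotted lines mark the median of all tested genes, -0.21 in EMT6 and -0.04 in MDA-MB-231. HAS2 in MDA-MB-231 lay farthest from 0, at -2.17.

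The order of the levels changed with genotype in MDA-MB-231. In the knockout it ran CD44, HYAL2 (9.32 to 10.6 TPM), HMMR (5.61 to 7.76 TPM), HAS2 (1.25 to 1.49 TPM), HAS3 and HAS1, with no overlap between neighbours. In wild type, HAS2 (8.06 to 11.4 TPM) and HYAL2 (9.07 to 9.94 TPM) stood below CD44 and overlapped, above HMMR (4.75 to 7.22 TPM), HAS3 and HAS1. In the EMT6 knockout the order was Cd44, Hyal2 (16.2 to 20.9 TPM), Hmmr (12.2 to 14.2 TPM), Has2, Has3 and Has1. In EMT6 wild type, Hyal2 (24.0 to 27.3 TPM) and Hmmr (23.8 to 26.4 TPM) overlapped below Cd44, followed by Has2, Has1 and Has3.

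Ratios within a library do not change with the scaling of that library. In MDA-MB-231, the log2 ratio of HAS2 to HYAL2, the main synthase over the surface hyaluronidase, was -2.90, -2.87 and -2.82 in the knockout libraries, against 0.17, 0.20 and -0.28 in the wild-type libraries. The difference of -2.89 separated all libraries (exact permutation p = 0.1, adjusted p = 0.133). In EMT6 this ratio was -2.64, -2.51 and -2.56 in the knockout, against -2.36, -2.40 and -2.52 in wild type, and overlapped (difference -0.14, exact permutation p = 0.2, adjusted p = 0.25).

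The log2 ratio of HAS2 to CD44 set the main synthase against the cell-surface receptor. In EMT6 it was -3.71, -3.54 and -3.69 in the knockout libraries, against -3.67, -3.63 and -3.72 in wild type, a difference of 0.03 within the spread of either group (exact permutation p = 0.8, adjusted p = 0.842). In MDA-MB-231 it was -6.33, -6.38 and -6.37 in the knockout, against -4.65, -4.59 and -4.87 in wild type, a difference of -1.66 (exact permutation p = 0.1, adjusted p = 0.133). The log2 ratio of CD44 to HMMR was 0.29 higher in the EMT6 knockout and lower in the MDA-MB-231 knockout (difference -1.40), each without overlap (exact permutation p = 0.1, adjusted p = 0.133). The log2 ratio of HAS2 to HMMR was higher in the EMT6 knockout (difference 0.32) and lower in the MDA-MB-231 knockout (difference -3.06). Neither line overlapped between groups (exact permutation p = 0.1 and adjusted p = 0.133 in each). The ratios were chosen after the values of the 6 genes were seen.

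**Figure D3:**
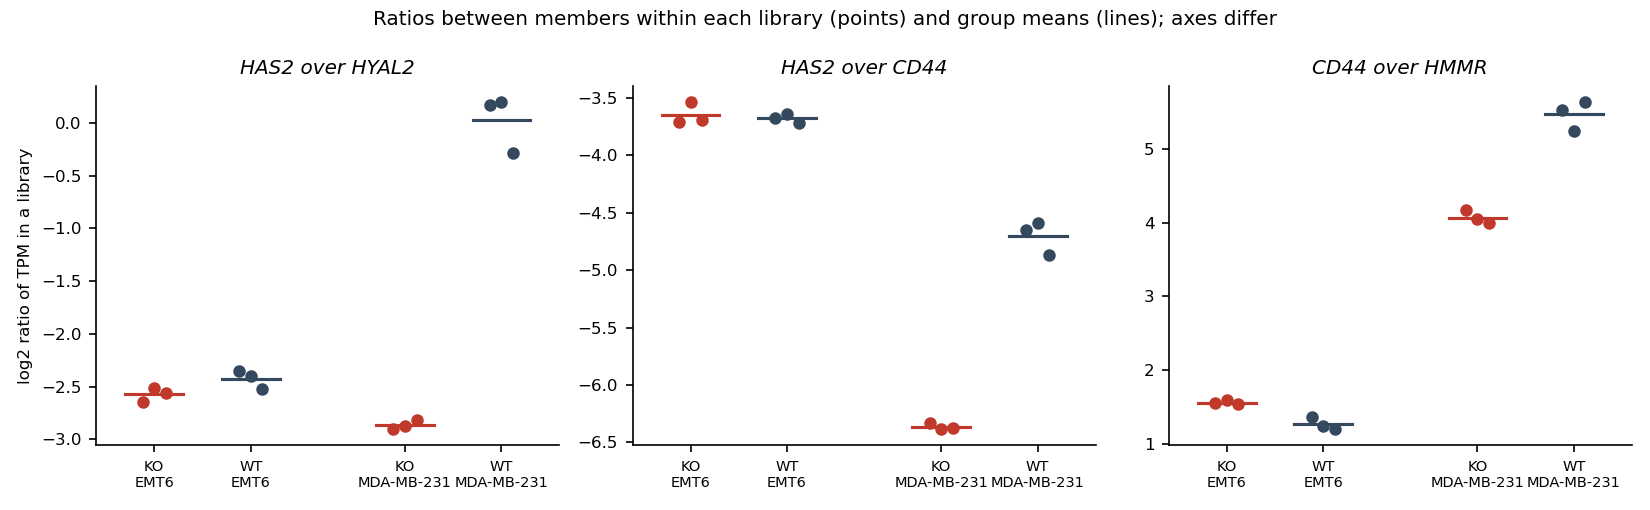
Log2 ratios of TPM between pairs of the genes in each library, knockout (KO, red) left of wild type (WT, dark) in each line, with group means as lines. HAS2 over HYAL2 and HAS2 over CD44 separated the groups in MDA-MB-231 (differences of -2.89 and -1.66), and overlapped in EMT6.

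The spindle and mitosis genes, listed without Hmmr itself, were often called lower in the EMT6 knockout. Of 26 tested, 17 were lower, 2 were higher and 7 were not called, beside 42.3% lower and 14.5% higher over all tested genes, with a median log2 fold change of -0.36 against -0.21 over all tested genes. Mki67, a proliferation marker, averaged 29.4 ± 1.98 TPM in the knockout and 54.8 ± 2.24 TPM in wild type (SD, n = 3 each; log2 fold change -0.88, limma adjusted p = 0.000306). Prc1, which bundles midzone microtubules (-0.66, adjusted p = 0.000413), and Kif11, the motor that separates spindle poles (-0.81, adjusted p = 0.000475), were also lower. Cdc20 (0.33, adjusted p = 0.00389) and Ccnb2 (0.28, adjusted p = 0.00757), both regulators of mitotic progression, were higher. Median-ratio scaling and removal of the length trend each left 10 lower and 3 higher, with medians of -0.14 and -0.12. Of all 13499 and 13487 genes tested there, 3426 and 3677 were lower and 3584 and 3099 higher, with medians of -0.01 and -0.05.

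Genes that make the sugar precursors of hyaluronan moved in both directions in EMT6. Of 10 tested, 2 were lower and 3 higher, beside 42.3% lower and 14.5% higher over all tested genes, with a median of 0.01 against -0.21. Median-ratio scaling and removal of the length trend each gave 6 higher, with medians of 0.25 and 0.27. These settings called 3584 of all 13499 and 3099 of all 13487 tested genes higher, with medians of -0.01 and -0.05. Ugdh, which makes UDP-glucuronic acid, stood at 59.7, 68.9 and 67.1 TPM in the knockout libraries, against 122.7, 100.4 and 99.9 TPM in wild type (log2 fold change -0.71 ± 0.10, SE; adjusted p = 0.00218). Gfpt1, the entry enzyme of the hexosamine pathway, averaged 9.30 ± 0.907 TPM in the knockout and 15.4 ± 2.01 TPM in wild type (-0.67, adjusted p = 0.00387). Ugp2, which makes UDP-glucose, the substrate of Ugdh, stood at 44.7, 43.8 and 42.5 TPM in the knockout libraries, against 28.0, 27.2 and 29.5 TPM in wild type (0.61 ± 0.05, SE; adjusted p = 0.000395). Nagk, which salvages N-acetylglucosamine (0.46, adjusted p = 0.000487), and Pgm1, a phosphoglucomutase (0.26, adjusted p = 0.00589), were higher. All 5 calls were kept in all 13 alternatives. Uap1, which makes UDP-N-acetylglucosamine, averaged 42.0 TPM in the knockout and 42.7 TPM in wild type (adjusted p = 0.778).

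Among 13 listed genes of hyaluronan breakdown, 12 had an identifier and 7 were tested, of which 3 were lower and 3 higher, with a median of -0.02 against -0.21 over all tested genes. The lower calls were at about the share over all tested genes (42.3%), and 14.5% of all tested genes were called higher. The cell-surface hyaluronidase Cemip2 stood at 3.04, 3.52 and 3.05 TPM in the knockout libraries, against 10.0, 9.13 and 9.08 TPM in wild type. No knockout library came near a wild-type library, and the log2 fold change was -1.31 ± 0.08 (SE; adjusted p = 0.000188). Cemip, a secreted protein needed for hyaluronan depolymerisation, averaged 0.681 ± 0.075 TPM in the knockout and 1.51 ± 0.169 TPM in wild type (-0.57, adjusted p = 0.00204). Hyal2 was the remaining gene called lower. Hexa, a lysosomal enzyme subunit that acts on the terminal sugar of chain fragments, was higher (0.53, adjusted p = 0.00132). Hyal1, the lysosomal hyaluronidase and a close neighbour of Hyal2, was also higher (0.40, adjusted p = 0.0395). That call was lost without any single library other than wild-type replicate 3 (adjusted p = 0.0691 to 0.107), and without the filter on low values (adjusted p = 0.0845). The call of Cemip was lost with the length trend removed (-0.12).

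The 15 listed partners of CD44 included ligands, proteases that cleave it and the proteins that tie it to actin. Of 11 tested, 8 were lower, 1 was higher and 2 were not called, beside 42.3% lower over all tested genes, with a median of -0.49 against -0.21 over all tested genes. Median-ratio scaling and removal of the length trend each left 6 lower, with medians of -0.26 and -0.23. Those settings called 3426 of all 13499 and 3677 of all 13487 tested genes lower, with medians of -0.01 and -0.05. Srgn, a proteoglycan ligand of CD44, averaged 1.67 ± 0.147 TPM in the knockout and 6.40 ± 1.02 TPM in wild type (-1.47, limma adjusted p = 0.000368). Mmp14, a membrane protease that cleaves CD44 (-0.76, adjusted p = 0.000379), and Adam17, a sheddase of surface proteins (-1.18, adjusted p = 0.00049), were lower too. Ezr (-0.72, adjusted p = 0.000503), Rdx (-0.40, adjusted p = 0.0225) and Msn (-0.29, adjusted p = 0.00918), the ezrin, radixin and moesin linkers between CD44 and actin, were all lower and were named after their values were seen. Spp1, the ligand osteopontin, was higher (0.19, adjusted p = 0.0269), a call lost in 8 of 13 alternatives, among them the leaving out of any library but knockout replicate 3 (adjusted p = 0.0578 to 0.0866).

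Most genes listed as other receptors, and few of the listed binding proteins, were expressed in EMT6. Lyve1 (0.00875 TPM in the knockout and 0.033 TPM in wild type) and Stab2 (0.0253 and 0.0691 TPM) were too low to test. The tested genes of the receptor list included Ptger4, a prostaglandin receptor. Of 7 genes listed as other receptors 5 were tested, with 2 lower and 0 higher by limma (0 higher at an unadjusted p under 0.05). Over all tested genes 42.3% were lower and 14.5% higher. The median of these 5 was -0.21, equal to that of all tested genes. Tlr4, an innate immune receptor reported to respond to hyaluronan fragments, averaged 4.2 ± 0.575 TPM in the knockout and 8.80 ± 2.21 TPM in wild type (-0.90, adjusted p = 0.00700). Stab1, a scavenger receptor related to the hyaluronan receptor stabilin-2, stood at 68.3, 81.0 and 61.6 TPM in the knockout libraries, against 81.7, 125.1 and 119.7 TPM in wild type. Its call (-0.61, adjusted p = 0.0337) was lost without knockout replicate 1 (0.0871), knockout replicate 3 (0.0979), wild-type replicate 2 (0.0938) or wild-type replicate 3 (0.0949), with median-ratio scaling (-0.37, adjusted p = 0.153), with no filter (0.0771) and after removal of the exon length trend (-0.19, adjusted p = 0.49). Of 18 binding proteins 5 were tested, with 2 lower and 1 higher, beside the same 42.3% and 14.5% over all tested genes. Vcan, the matrix proteoglycan versican, stood at 83.4, 93.4 and 83.6 TPM in the knockout libraries, against 164.6, 154.9 and 178.2 TPM in wild type (-0.93 ± 0.07, SE; adjusted p = 0.000364). Itih2, a heavy chain that becomes linked to hyaluronan, was lower (-0.53, adjusted p = 0.00202). C1qbp was called higher by a narrow margin (0.10, adjusted p = 0.0497) and lost the call without any 1 of the 6 libraries (adjusted p = 0.055 to 0.139).

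**Figure D4:**
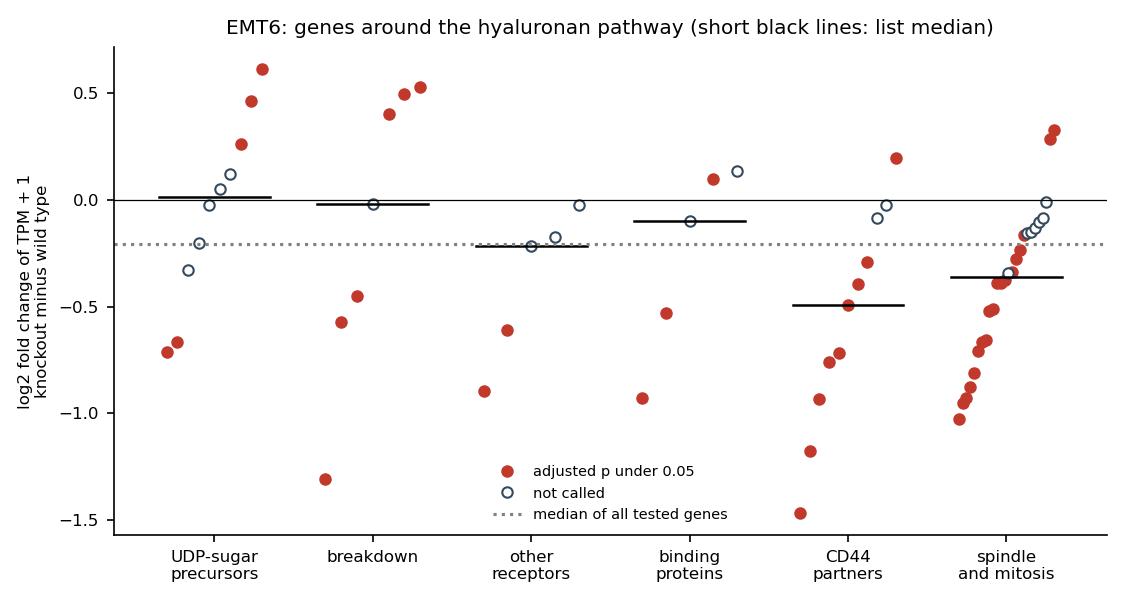
Log2 fold change of TPM + 1 in EMT6, knockout minus wild type, for the tested genes of 6 lists around hyaluronan. Filled points are called, open points are not, short black lines are list medians and the dotted line is the median of all tested genes (-0.21). Partners of CD44 (median -0.49) and spindle genes (-0.36) lay lowest, and sugar precursor genes (0.01) spread to both sides.

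Cd44 and Has2 are also abundant in fibroblasts, and Cd44 in leukocytes. The 10 fibroblast markers summed to 224.8 to 234.1 TPM in the EMT6 knockout libraries, against 521.2 to 538.9 TPM in the wild-type libraries. Col1a1 (-1.92, adjusted p = 2.05e-05) and Col1a2 (-0.82, adjusted p = 6.04e-05) made up most of that sum and were lower. Col3a1 averaged 0.0217 TPM in the knockout and 17.7 TPM in wild type (-4.19, adjusted p = 1.26e-05), and Pdgfra (-0.87, adjusted p = 0.00112) and Pdgfrb (-0.21, adjusted p = 0.0228) were lower too. Dcn was higher, at 2.52 TPM in the knockout and 0.412 TPM in wild type (1.32, adjusted p = 0.000156). The remaining 4 (Lum, Thy1, Postn and Fap) were too low to test. The 15 leukocyte markers summed to 83.5 to 88.4 TPM in the knockout libraries, against 50.6 to 55.2 TPM in wild type. Cd68 averaged 56.1 TPM in the knockout and 23.9 TPM in wild type (1.2, adjusted p = 0.000265), and Coro1a (0.95, adjusted p = 0.000253) and Lcp1 (0.42, adjusted p = 0.0023) were higher as well. Cd14 was not called (23.7 TPM in the knockout and 25.3 TPM in wild type, adjusted p = 0.158). The other 11 were too low to test. Among them Ptprc, which defines leukocytes, averaged 0.00265 TPM in the knockout and was listed at 0 in wild type, and Adgre1 was listed at 0 in all 6 libraries. The 10 endothelial markers summed to 1.96 to 5.06 TPM in the knockout libraries and 3.18 to 4.51 TPM in wild type. The part of these marker genes in the results was not tested.

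The genes whose profile over the 6 EMT6 libraries was most like that of each member were found among genes of at least 10 TPM by Pearson's r of log2(TPM + 1). For Hmmr they were Slc20a1 (r = 0.9998), Sav1 (0.9996) and Nfkb1 (0.9996). For Cd44 they were Slc30a4 (0.9991), Zfp91 (0.999) and Rab35 (0.9989). For Has2 they were Slain2 (0.9962), Ndc1 (0.996) and Cdc73 (0.9957). For Hyal2 they were Fam45a (0.9966), Tgfbr3 (0.9957) and Cnot3 (0.9947). All 12 were lower in the knockout, which follows from picking them by likeness to genes that were themselves lower. The 6 points share 2 groups, so that 572 (Hyal2) to 1560 (Hmmr) of about 6587 genes had r over 0.95.

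**Figure D5:**
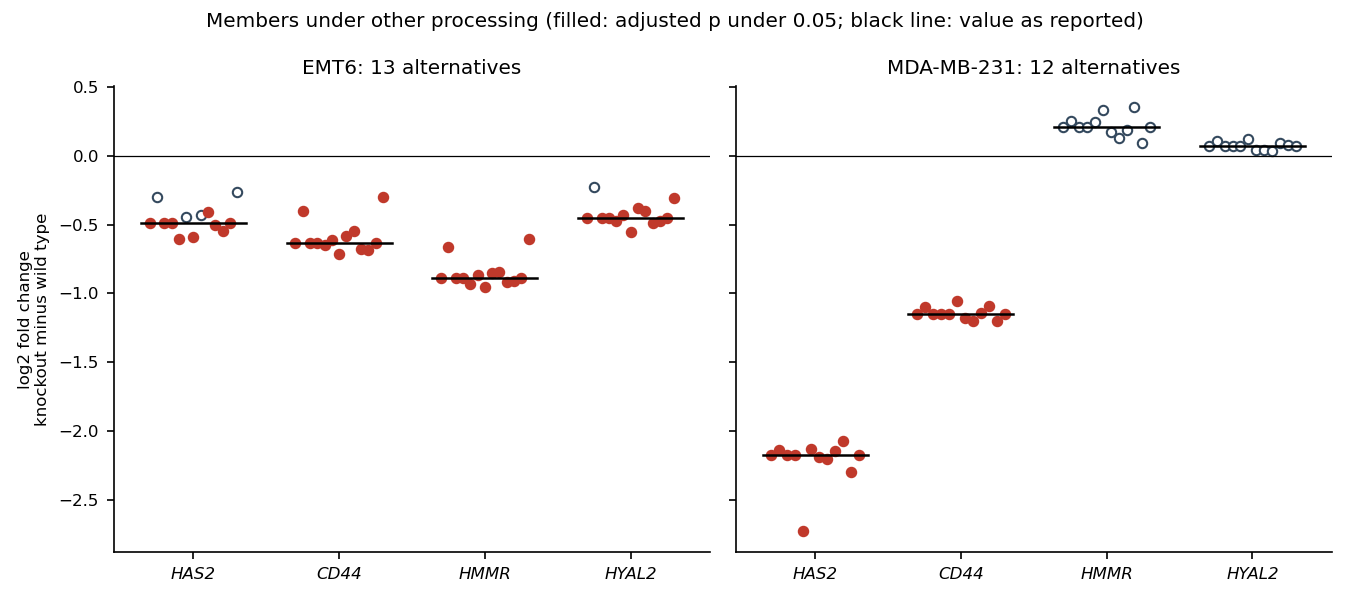
Log2 fold change of the 4 tested genes under 13 alternatives in EMT6 and 12 in MDA-MB-231. Filled points are called, open points are not, and black lines are the values given in the text. HAS2 in EMT6 ran between -0.60 and -0.26, and in MDA-MB-231 between -2.73 and -2.07.

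Across alternatives the sign of each of the 4 genes held in each line. In MDA-MB-231, HAS2 (adjusted p between 0.000289 and 0.00531) and CD44 (-1.20 to -1.06, adjusted p between 0.000577 and 0.00784) were called in all 12. In EMT6, Cd44 and Hmmr were called in all 13, Hyal2 in 12 and Has2 in 9. Set against the median of all tested genes, which was -0.014 after median-ratio scaling and -0.21 in TPM in EMT6, Hmmr stood at -0.68 in TPM, -0.65 after scaling and -0.55 with the length trend removed. Cd44 stood at -0.43, -0.39 and -0.25 on the same footing, Has2 at -0.28, -0.28 and -0.21, and Hyal2 at -0.25, -0.21 and -0.25.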

How the data were processed

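The authors deposited TPM per gene in 1 table per cell line, and each library sums to 1000000. The tools, per the submitters' processing notes, included TopHat2 2.1.1, CASAVA 1.8.2, Subread 1.6.4 and featureCounts, and the builds mm10 and GRCh38.p7. The strand setting is not given in the sources used here. TPM were taken as log2(TPM + 1) and tested per line with limma 3.58.1 (R 4.3.3) with a trended prior, on genes at 0.5 TPM or more in at least 3 of 6 libraries, with Benjamini-Hochberg adjustment over all genes tested and calls under 0.05. A fold change on this scale understates that of low genes. Ratios and shares were compared by an exact two-sided permutation test.

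Mouse names and positions came from GENCODE M21 (54097 of 54331 identifiers matched), and human genes from the identifiers given with the gene set. The genes and lists were chosen with earlier results of these data known. Named were the 6 genes, the 3 (or fewer) called genes of lowest adjusted p in each direction of each list, Pfkfb4 and the 3 genes most like each tested member. One gene that this rule names is not reported here. Ratios and the neighbours of Hyal2 were added after values were seen. The limma fit was also run on simulated data with 200 changed genes, independent errors and no shift over all genes. The EMT6 data had a median of -0.21 over all tested genes, a setting that this run does not cover. Alternatives were no trend, median-ratio scaling, other filters, a pseudocount of 0.1, leaving out each library, a replicate block and, in EMT6, removal of a trend on exon length.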

Additional observations from a re-analysis of the deposited data

How the results depend on the processing

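None of the 4 tested genes in either line, and none of the list genes named by the fixed rule, changed sign in the alternatives run. Ezr, Rdx, Msn and Uap1 were not among the genes followed there. In EMT6, median-ratio scaling left 2 of the 6 genes called lower (Cd44 and Hmmr) in place of 4. Median-ratio scaling and removal of the length trend each raised the sugar precursor genes called higher to 6 and left 10 spindle genes called lower. Other receptors called lower fell to 1 with median-ratio scaling, no filter or the length trend removed, and ranged from 1 to 2 when 1 library was left out; 1 was called higher with the length trend removed. Binding proteins called higher fell to 0 with no trend, no filter, a pseudocount of 0.1, the replicate block or any library left out. Partners of CD44 called higher fell to 0 with no filter, the replicate block or the length trend removed, and ranged from 0 to 1 when 1 library was left out. The median-ratio split over all genes was 3426 lower and 3584 higher in EMT6, against 5705 and 1954 in TPM, and 1747 and 1604 in MDA-MB-231, against 1845 and 1220. With the length trend removed, EMT6 had 3677 lower and 3099 higher. The cause of these shifts was not tested.

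Deviations of same-numbered libraries correlated at -0.0175 to 0.0728 (EMT6) and at -0.127 to 0.114 (MDA-MB-231). Those of differently numbered libraries correlated at -0.122 to 0.0623 and at -0.182 to 0.191. With 3 libraries per group, such values cannot show whether same-numbered libraries share a culture or a batch. With the replicate block, Has2 (adjusted p = 0.0368), Cd44 (0.0148) and Hyal2 (0.0314) stayed called in EMT6, as did HAS2 (0.00531) and CD44 (0.00784) in MDA-MB-231. Hyal1 (0.0819), Spp1 (0.0551) and C1qbp (0.128) were not called with the block in EMT6. The block left 1030 genes lower and 534 higher in MDA-MB-231. The length correction was not run for MDA-MB-231.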

Other observations

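Hyal2 lies on mouse chromosome 9 with Pfkfb4, whose start is 1418999 bases beyond the end of Hyal2. Of 55 tested genes within 1000000 bases of Hyal2, 19 (34.5%) were called lower in the EMT6 knockout and 4 higher by limma, beside 42.3% lower and 14.5% higher over all tested genes, with a median log2 fold change of -0.13 against -0.21 over all tested genes. With median-ratio scaling 9 were lower and 13 higher, beside 3426 lower and 3584 higher of all 13499 tested genes. Sema3b, a secreted semaphorin 24895 bases away, stood at 2.54, 2.28 and 1.43 TPM in the knockout libraries, against 7.42, 7.52 and 7.07 TPM in the wild-type libraries (-1.45, adjusted p = 0.000814). Tusc2, the nearest expressed gene, averaged 7.24 ± 0.167 TPM in the knockout and 6.22 ± 0.689 TPM in wild type (SD, n = 3 each; 0.19, adjusted p = 0.0967).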
